A study of Mus musculus with 6 samples.

Results

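The genes described here are the axon guidance families of ephrins and Eph receptors, Slits and Robos, and netrins with their receptors, measured in the embryonic mouse cortex with and without Ybx1. Earlier results of these data were known when the families were chosen. Members were then taken by gene symbol, namely every Epha, Ephb, Efna, Efnb, Slit, Robo, Ntn, Ntng and Unc5 gene together with Dcc, Neo1 and Draxin. This gave 41 of the 17348 genes in the table, of which 17 encode ligands and 24 encode receptors, and 39 of them were among the 13340 genes with enough counts to be tested. The remaining 2, Epha1 and Epha10, stayed under the filter on low counts.

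Guidance cues tell a growing axon or a migrating cell where to turn, where to stop and what to avoid. Ephrins stay attached to the cell surface, so Eph receptor tyrosine kinases read them only on contact, and the ephrin-bearing cell can be signalled to in return. Slits are secreted and repel growth cones that carry Robo receptors, and in the forebrain they keep axons and migrating neurons out of the midline and the ventricular surface. Netrin-1 is a laminin-related secreted cue that attracts growth cones through Dcc and repels them when an Unc5 receptor takes part, while Draxin is a secreted protein that binds both netrin-1 and Dcc.

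To ask which of these transcripts differed when Ybx1, an RNA-binding protein that reads methylated cytosines, was removed, cortices of E13.5 embryos were sequenced as bulk tissue, with 3 libraries of Ybx1 conditional knockout (cKO) embryos and 3 libraries of wild type (WT) littermates. In the cKO embryos a floxed Ybx1 was recombined by Nestin-Cre, which is active in neural progenitors, so that their progeny carry the deletion. The labels call the control genotype WT, whereas elsewhere the study names its controls as floxed embryos without Cre, so which alleles the control libraries carried cannot be told apart here. The study counts 3 independent replicate experiments and 3 sequencing batches without saying which libraries each batch held, and does not say whether embryos were pooled, so p-values measure the spread between these libraries.

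The libraries held 15907486 to 16282921 estimated counts, and values below are given as counts scaled to a common library total (CPM) after TMM scaling, in which a count of 0 allows up to 0.181 to 0.188 CPM. Ybx1 itself stood at 1021, 528 and 1220 CPM in WT replicates 1, 2 and 3 and at 83.1, 117 and 147 CPM in the cKO replicates, which is -2.998 ± 0.33 (SE) on the log2 scale with a Benjamini-Hochberg adjusted p of 0.128 (edgeR's quasi-likelihood test). The library labelled WT replicate 2 therefore lay far below the other WT libraries. The library cKO replicate 3 carried markers of other tissues, in that 10 epidermal markers summed to 296 CPM there against 3.01 to 3.81 CPM elsewhere, and 11 markers of meninges and mesenchyme summed to 617 CPM against 50.8 to 89.9 CPM. Of the latter list, Col1a1, Col1a2, Col3a1, Lum, Dcn, Twist1 and Prrx1 were highest in that library. Foxc1, Foxd1, Crabp2 and Aldh1a2 lay there within the range of the other libraries, so the excess was not shared by the whole list. For members that these libraries moved most, values are given with and without them. Markers of cortical neurons were high in all 6 libraries, with Tbr1 between 412 and 555 CPM and Neurod6 between 738 and 1009 CPM.

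Levels were compared between genes as TPM, transcript shares of a library that are corrected for transcript length. The 41 genes summed to 1594 TPM ± 186 (SD, n = 6 libraries), with 48.1% in ligands and 51.9% in receptors. Ephrin-B genes took 26.1% of this sum and EphA receptors 24.7%, followed by Dcc and Neo1 with 10.5%. The smallest class was the secreted netrins, with 25.9 TPM ± 5.86 over 3 genes. Efnb1 had the highest mean level of all members at 197 TPM ± 17.5, then Efnb2 at 175 TPM ± 24.4 and Epha4 at 164 TPM ± 10.1, and the ranges of these 3 genes overlapped. Epha5, Epha3, Draxin, Dcc and Neo1 followed between 105 and 81.9 TPM, again with overlapping ranges, and Epha10 was lowest at 0.135 TPM. The plot of levels shows the leading gene of every class.

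**Figure D1:**
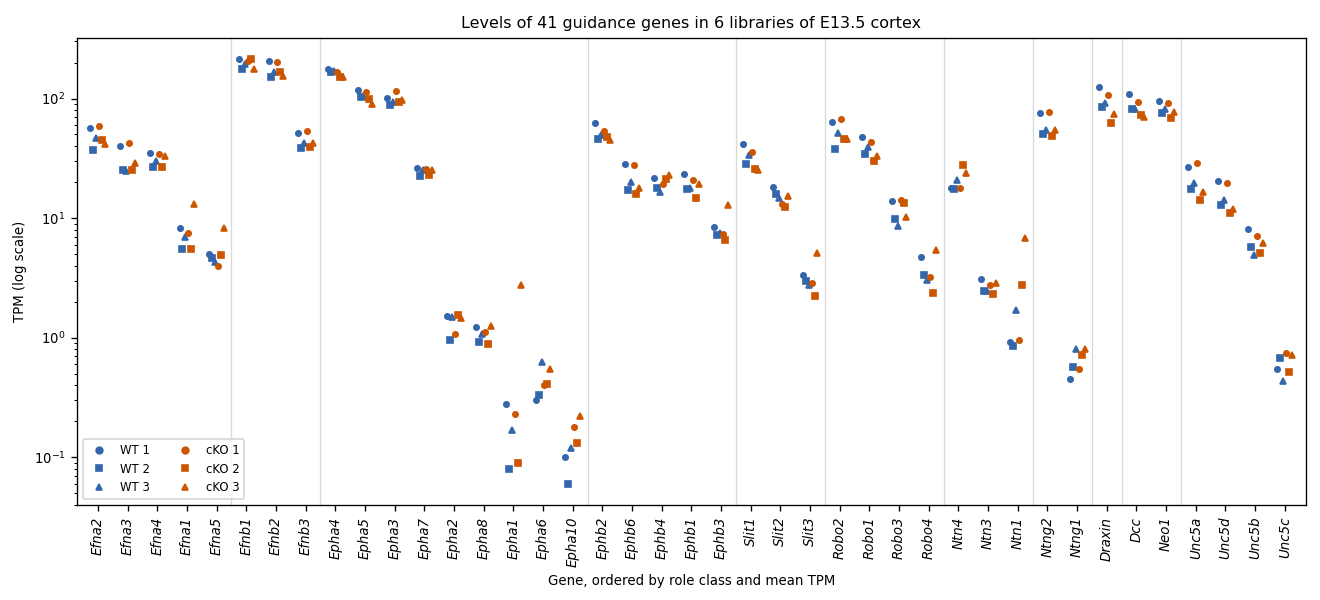
Level of each of the 41 guidance genes in TPM (log axis) in the 6 libraries, with WT in blue, cKO in orange and 1 marker shape per replicate number, ordered by role class and mean level. The genes ran from 0.135 TPM for Epha10 to 197 TPM for Efnb1, and for most genes the points of the WT and cKO libraries intermingle.

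No guidance gene was called different between the genotypes after adjustment. With p-values of edgeR's quasi-likelihood test adjusted by Benjamini-Hochberg over all 13340 genes, 0 of the 39 tested members passed in either direction, the background being 0% of all genes in each direction, and every member's adjusted p was 0.99995. At an unadjusted p under 0.05, 1 member was higher in cKO (Ntn1; background 1.75% of all genes) and 1 was lower (Slit2; background 1.81%). DESeq2 also gave 0 after adjustment, and at an unadjusted p under 0.05 gave 0 higher (1.11% of all genes) and 2 lower, namely Slit2 and Epha4 (1.44% of all genes). The cKO libraries all lay above the WT libraries in CPM for 1 tested member (Epha3; background 4.21%) and all below for 1 (Epha4; background 4.83%), and 1 of 39 is not above these shares. Log2 fold changes were above 0 for 20 members and below 0 for 19, with a median of 0.022 against 0.0019 over all genes tested. In bulk tissue, fewer cells of a type and less RNA per cell cannot be told apart.

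**Figure D2:**
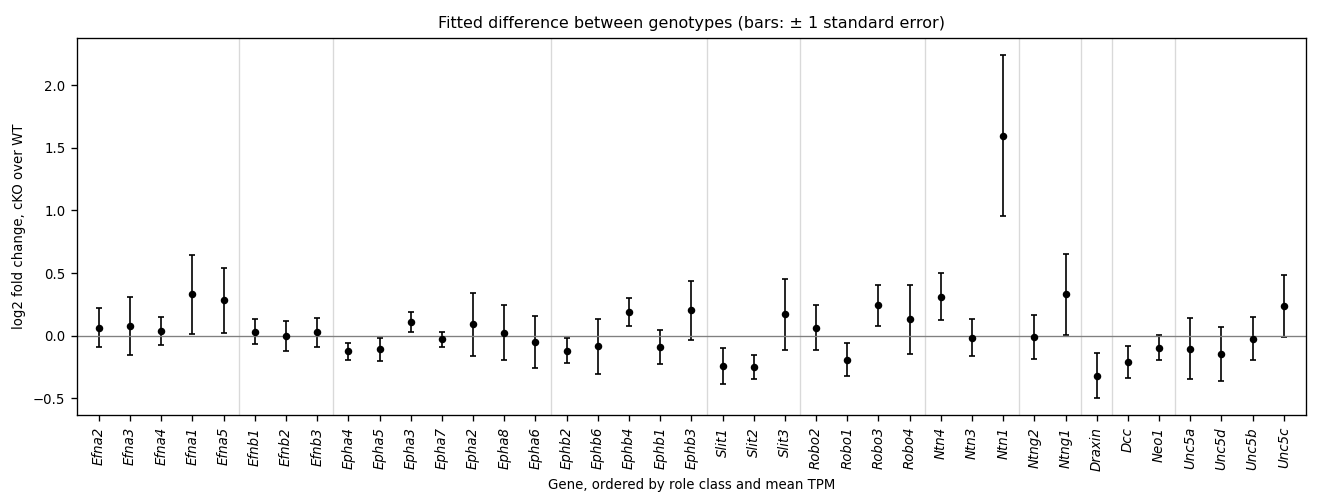
Log2 fold change of cKO over WT for the 39 tested members, from edgeR's quasi-likelihood model, with bars of 1 standard error either side, ordered by class and mean level. Apart from Ntn1 at 1.60, the values lie between -0.32 and 0.33.

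The counts of members with an unadjusted p under 0.05 depended on single libraries. Without cKO replicate 1 they came to 4 higher (Efna5, Ephb4, Ntn1 and Ntn4; 4.23% of all genes) and 6 lower (Dcc, Draxin, Robo1, Slit1, Unc5a and Unc5d; 3.57% of all genes). Leaving out WT replicate 1, WT replicate 2 or cKO replicate 2 gave a lower count of 0, and Slit2 was the 1 lower gene without WT replicate 3 or cKO replicate 3. Leaving out WT replicate 2, cKO replicate 2 or cKO replicate 3 gave a higher count of 0, which was 1 without WT replicate 1, where the gene was Robo3 in place of Ntn1, and 1 (Ntn1) without WT replicate 3. In these fits without a library other than cKO replicate 1, 0.895% to 2.46% of all genes were higher and 0.873% to 1.81% lower. With both doubted libraries left out, 0 members were higher (0.787% of all genes) and Slit2 was lower (1.06% of all genes). In each of these fits 0 members passed the adjusted test.

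The ephrin-A ligands, which are held to the membrane by a lipid anchor, summed to 123 TPM against 416 TPM for the ephrin-B ligands, which span it. Efna2 was the most abundant ephrin-A at 47.6 TPM ± 8.65 (SD, n = 6), with 47.1, 33.8 and 41.8 CPM in WT replicates 1 to 3 and 50.4, 41.3 and 36.3 CPM in the cKO replicates. The 2 genotypes overlapped, and the log2 fold change was 0.06 ± 0.16 (SE). Efna1 had the largest fitted difference of the class, with 4.52, 3.28 and 4.06 CPM in WT and 4.12, 3.26 and 7.54 CPM in cKO. It was high in cKO replicate 3 alone, so its log2 fold change of 0.33 ± 0.32 became -0.10 without that library and -0.22 without WT replicate 2 as well. Efna5 had the same shape, with 19.1 CPM in cKO replicate 3 against 8.67 to 11.8 CPM in the other 5 libraries, and its log2 fold change of 0.28 ± 0.26 was -0.087 without it. The part of the epidermal and mesenchymal RNA of that library in these values was not tested. Efna3 and Efna4, which lie with Efna1 on chromosome 3 and overlap antisense transcripts in the GENCODE annotation, had log2 fold changes of 0.08 and 0.04.

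Efnb1, an X-linked gene whose product sorts cells into domains in the embryonic brain and skull, was at 295, 267 and 291 CPM in WT and at 290, 325 and 257 CPM in cKO. The cKO libraries held both the highest and the lowest value, and the log2 fold change was 0.03 ± 0.10. Efnb2, which also marks arteries, differed by -0.0024 ± 0.12 and Efnb3, a repellent of the spinal cord midline, by 0.03 ± 0.11 on the log2 scale. All 3 ephrin-B genes were thus measured with standard errors near 0.1, and the genotypes overlapped for each.

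Epha4, Epha5 and Epha3 were the most abundant EphA receptors. Epha4 (GRCm38.p6 chr1:77367182-77515107), a receptor of both ephrin classes that is needed for several forebrain and spinal tracts, stood at 482, 497 and 493 CPM in WT and at 463, 454 and 431 CPM in cKO. All 3 cKO libraries were below all 3 WT libraries, with means of 449 ± 16.7 and 491 ± 7.66 CPM (SD, n = 3 each). The log2 fold change was -0.13 ± 0.07 with an unadjusted p of 0.102 and a Benjamini-Hochberg adjusted p of 0.99995 (edgeR's quasi-likelihood test), and it was -0.12 without WT replicate 2, -0.10 without cKO replicate 3 and -0.09 without both. In TPM the genotypes overlapped, since cKO replicate 1 was at 167 TPM and WT replicate 2 at 166 TPM.

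Epha3 (chr16:63543532-63864175), a receptor of ephrin-A5 among others, stood at 246, 234 and 245 CPM in WT and at 283, 251 and 248 CPM in cKO. The gap between the genotypes was narrow, from 246 CPM in WT replicate 1 to 248 CPM in cKO replicate 3, and it closed in TPM and when scaling factors were computed with no filter on low counts. The log2 fold change was 0.11 ± 0.08 with an unadjusted p of 0.198, and 0.12 without both doubted libraries. Epha5 and Epha7, the other abundant members, had log2 fold changes of -0.11 ± 0.09 and -0.03 ± 0.06, and that of Epha5 was -0.038 without cKO replicate 3.

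Low EphA receptors gave little precision. Epha2, Epha8 and Epha6 lay between 1.73 and 3.25 CPM in every library, and their log2 fold changes lay between -0.05 and 0.09 with standard errors of 0.21 to 0.25. Epha10 had 2, 1 and 3 counts in WT and 4, 5 and 4 counts in cKO, which is too few counts to order the genotypes. Epha1 had 6, 2 and 4 counts in WT and 5, 2 and 65 counts in cKO. It is named after its values were seen, because 1 library held most of its counts. That library was cKO replicate 3, and the exons of Epha1 also overlap Zyx on the opposite strand, which counting without strand could not separate.

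EphB receptors were led by Ephb2, a receptor that guides commissural axons, at 50.7 TPM ± 6.47 (SD, n = 6). Its values were 300, 243 and 256 CPM in WT and 259, 249 and 226 CPM in cKO, which overlapped, and the log2 fold change was -0.12 ± 0.10, or -0.069 without cKO replicate 3. Ephb3 was at 14.6, 13.8 and 14.0 CPM in WT and at 13.0, 12.4 and 23.5 CPM in cKO. In cKO replicates 1 and 2 it was under every WT library and in cKO replicate 3 it was over every one, so the log2 fold change of 0.20 ± 0.24 became -0.16 without that library and -0.18 without both doubted libraries. Ephb1, Ephb4, a receptor of venous endothelium, and the kinase-inactive Ephb6 had log2 fold changes of -0.09, 0.19 and -0.08, and their genotypes overlapped.

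Slit1 was the most abundant Slit at 31.8 TPM ± 6.44 (SD, n = 6). It stood at 123, 94.4 and 105 CPM in WT and at 110, 83.8 and 78.0 CPM in cKO. The replicate 1 libraries were the highest of both genotypes, and the log2 fold change was -0.25 ± 0.14 with an unadjusted p of 0.129, or -0.15 without cKO replicate 3. Slit2 (chr5:47981291-48307735) had the lowest unadjusted p of the 39 members. It stood at 79.8, 75.3 and 69.1 CPM in WT and at 57.9, 59.2 and 70.9 CPM in cKO, so that only cKO replicate 3 reached the WT range. The means were 74.7 ± 5.41 and 62.7 ± 7.18 CPM (SD, n = 3 each), and the log2 fold change was -0.25 ± 0.10 with an unadjusted p of 0.0320 and a Benjamini-Hochberg adjusted p of 0.99995 (edgeR's quasi-likelihood test). Without cKO replicate 3 it was -0.35 with an unadjusted p of 0.00469 and an adjusted p of 0.9998 in the same edgeR test, and without both doubted libraries -0.35 with an unadjusted p of 0.0182. Its unadjusted p rose to 0.115 when WT replicate 1 was left out, to 0.0746 when this was WT replicate 2 and to 0.107 when it was cKO replicate 1. Slit3 was lower in level, at 5.14 to 7.10 CPM in 5 libraries and 11.5 CPM in cKO replicate 3, with a log2 fold change of 0.17 ± 0.28 that was -0.26 without that library.

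**Figure D3:**
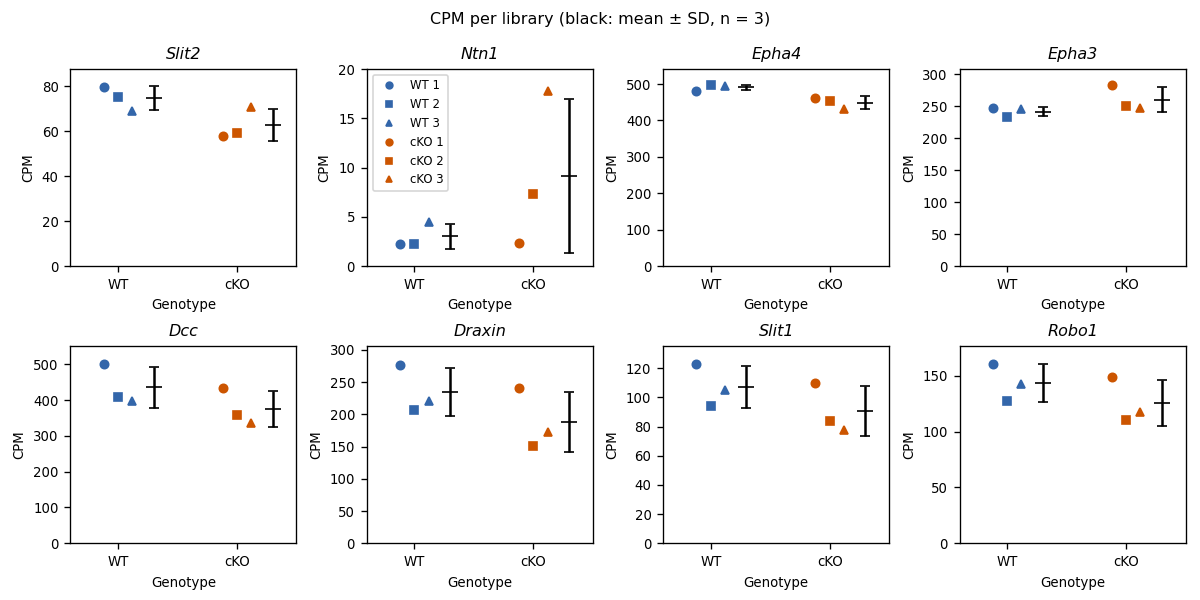
CPM of 8 guidance genes in each library, with WT in blue, cKO in orange, 1 marker shape per replicate number and the mean with its SD in black (n = 3 per genotype). Epha4 and Epha3 are the genes whose genotypes did not overlap, Slit2 overlapped through cKO replicate 3 alone, and Ntn1 was spread from 2.37 to 17.7 CPM within cKO.

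The study found Ybx1 protein mainly in the cytoplasm of neural progenitors and proposes that a role in transcription may be questionable there. Binding of Ybx1 to promoters was not tested. Because Ybx1 is nevertheless named for binding the Y-box, an inverted CCAAT motif of promoters, the 250 bases before the start site are shown for the tested members whose genotypes did not overlap or whose unadjusted p was under 0.05, as far as RefSeq (GRCm38.p6) gave a window, which left out Ntn1. Each runs 5′ to 3′ on the strand of the gene, and capitals mark the CCAAT motif (ATTGG on the other strand), the TATA box searched as TATAAA, and the GC-box searched as GGGCGG, each on either strand. The windows are chr1:77515089-77515338 on the minus strand for Epha4, chr16:63864176-63864425 on the minus strand for Epha3 and chr5:47982905-47983154 on the plus strand for Slit2. Transcripts with an earlier start are listed for Epha4 and Slit2, so these windows belong to the start that RefSeq's window uses.
Epha4: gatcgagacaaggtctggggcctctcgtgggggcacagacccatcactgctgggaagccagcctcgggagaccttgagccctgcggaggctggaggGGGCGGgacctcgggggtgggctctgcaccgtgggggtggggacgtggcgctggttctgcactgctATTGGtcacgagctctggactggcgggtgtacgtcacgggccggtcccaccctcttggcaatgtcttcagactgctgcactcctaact
Epha3: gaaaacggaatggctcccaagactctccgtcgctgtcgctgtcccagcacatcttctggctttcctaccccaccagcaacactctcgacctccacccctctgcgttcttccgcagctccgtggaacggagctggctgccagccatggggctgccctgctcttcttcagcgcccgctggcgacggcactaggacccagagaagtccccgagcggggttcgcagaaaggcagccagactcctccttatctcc
Slit2: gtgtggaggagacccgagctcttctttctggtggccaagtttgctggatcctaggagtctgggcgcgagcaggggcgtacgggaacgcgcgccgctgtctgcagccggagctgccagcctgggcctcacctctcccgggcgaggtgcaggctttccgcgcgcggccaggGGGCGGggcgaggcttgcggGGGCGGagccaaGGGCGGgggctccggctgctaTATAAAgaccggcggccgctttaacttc
The Epha4 window held 1 ATTGG, 88 bases before the start, and 1 GGGCGG. The Epha3 window held none of these letters in either direction, and the Slit2 window held TATAAA 28 bases before the start and 3 copies of GGGCGG. Windows were found for 36 of the 41 members, some with more than 1 start, which gave 41 windows. CCAAT on either strand was in 15 of them (36.6%) and in 33.8% of all 32851 windows of the same length. The GC-box was in 29 (70.7%) against 32.7% of all windows, and the TATA box was in 2 (4.88%) against 12.4%. All windows came from 27025 genes, more than the 17348 genes measured here. The shares among tested genes alone were not computed, so the differences cannot be called particular to the members.

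Robo2 and Robo1, the receptors through which cortical and thalamic axons respond to Slits, were the abundant Robo genes. Robo2 stood at 243, 157 and 209 CPM in WT and at 259, 191 and 186 CPM in cKO. Replicate 1 was highest in both genotypes, and the log2 fold change was 0.06 ± 0.18, or -0.0044 without both doubted libraries. Robo1, its neighbour on chromosome 16, had 161, 127 and 143 CPM in WT and 149, 110 and 117 CPM in cKO, again highest in replicate 1, and differed by -0.19 ± 0.13 on the log2 scale (unadjusted p of 0.180). Robo3, which in hindbrain and spinal cord lets axons cross the midline, had 27.3, 22.0 and 18.9 CPM in WT and 28.5, 29.9 and 22.1 CPM in cKO. Its genotypes overlapped, with a log2 fold change of 0.24 ± 0.16. Robo4, a gene of endothelial cells next to Robo3 on chromosome 9, was at 4.08 to 7.96 CPM with a log2 fold change of 0.13 ± 0.28 that was -0.22 without cKO replicate 3 and -0.32 without both doubted libraries. The 10 endothelial markers summed to 122, 87.9 and 98.8 CPM in WT and to 99.3, 100.2 and 125 CPM in cKO, and Robo4 was likewise highest in WT replicate 1 and cKO replicate 3. The part of vessels in the Robo4 value was not tested.

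Ntn1 (chr11:68209364-68386826), the netrin made by the floor plate and the ventral forebrain, had the largest fold change of the 39 tested members and the widest spread among them. It stood at 2.26, 2.29 and 4.50 CPM in WT and at 2.37, 7.34 and 17.7 CPM in cKO. Replicate 1 of the cKO libraries was inside the WT range, and cKO replicate 3 was over every other library. The log2 fold change was 1.60 ± 0.65 with an unadjusted p of 0.0386 and a Benjamini-Hochberg adjusted p of 0.99995 (edgeR's quasi-likelihood test). It was 0.68 with an unadjusted p of 0.199 without cKO replicate 3, and 0.52 with an unadjusted p of 0.386 without WT replicate 2 as well. Leaving out cKO replicate 1 gave 2.07 with an unadjusted p of 0.00145, while the unadjusted p was 0.112 without WT replicate 2 and 0.108 without WT replicate 1.

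A list of 15 ventral forebrain markers summed to 157, 153 and 215 CPM in WT and to 230, 251 and 226 CPM in cKO, so that the cKO libraries lay above the WT libraries. Of the 11 markers tested, 10 had a log2 fold change above 0. At an unadjusted p under 0.05 in edgeR's quasi-likelihood test, 6 were higher, against 1.75% of all genes, with 0 passing the adjusted test. The list was chosen with earlier results of these data known, so these counts are a description only. Sst, a peptide of interneurons, was at 7.75 to 9.67 CPM in WT and 19.3 to 20.3 CPM in cKO. These markers were even across the cKO libraries while Ntn1 was not, and cKO replicate 3 also carried the epidermal and mesenchymal RNA described above. The part of either in the Ntn1 values was not tested.

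Ntn4, a basement membrane netrin of vessels and meninges, was the most abundant secreted netrin at 20.9 TPM ± 4.23 (SD, n = 6). Its values were 17.3, 18.4 and 21.4 CPM in WT and 17.3, 29.4 and 24.1 CPM in cKO, with a log2 fold change of 0.31 ± 0.19. As with Ntn1, replicates 2 and 3 of cKO were over the WT range and cKO replicate 1 was at its lower edge. Ntn3 was at 5.27 to 6.53 CPM in all libraries, with a log2 fold change of -0.02 ± 0.15. Its exons overlap those of Tbc1d24 on the same strand, so its reads may be shared.

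The netrin-G proteins are anchored to the membrane and bind adhesion molecules of the Lrrc4 family in place of Dcc. Ntng2 stood at 51.3, 37.2 and 39.0 CPM in WT and at 52.5, 35.4 and 38.2 CPM in cKO. The replicate 1 libraries were well over the other 4 and the genotypes overlapped, with a log2 fold change of -0.01 ± 0.18. Ntng1, a marker of thalamic axons, was near the floor of the table at 0.942, 1.24 and 1.94 CPM in WT and 1.37, 1.76 and 2.05 CPM in cKO, with a log2 fold change of 0.33 ± 0.32.

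Dcc, the netrin receptor on the axons of young cortical neurons, was at 85.0 TPM ± 14.8 (SD, n = 6). It stood at 501, 407 and 398 CPM in WT and at 432, 359 and 335 CPM in cKO. The lowest WT library was under cKO replicate 1, so the genotypes overlapped, and the log2 fold change was -0.21 ± 0.13 with an unadjusted p of 0.130, or -0.14 without cKO replicate 3. Neo1, which encodes the related receptor neogenin, differed by -0.10 ± 0.10. Draxin (chr4:148098437-148131139) had the most negative fold change of the tested members, with 277, 207 and 220 CPM in WT and 241, 150 and 173 CPM in cKO. Only cKO replicate 1 reached the WT range, and the log2 fold change was -0.32 ± 0.18 with an unadjusted p of 0.115, or -0.34 without both doubted libraries. Without cKO replicate 1 it was -0.53 with an unadjusted p of 0.00495 and an adjusted p of 0.626 in the edgeR test with Benjamini-Hochberg adjustment.

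Of the Unc5 genes, which encode the receptors for repulsion by netrin-1, Unc5a was the most abundant at 20.6 TPM ± 5.99 (SD, n = 6). It was at 43.6, 31.2 and 34.3 CPM in WT and 48.1, 25.0 and 28.4 CPM in cKO, so that cKO held both extremes, and the log2 fold change of -0.10 ± 0.24 changed sign when WT replicate 1, cKO replicate 2 or cKO replicate 3 was left out. Unc5d, a marker of migrating upper-layer neurons, was likewise highest in the replicate 1 libraries, with 80.7 and 79.9 CPM there and 48.1 to 60.6 CPM in the others, and a log2 fold change of -0.15 ± 0.21. Unc5b differed by -0.02 ± 0.17. Unc5c was low, at 2.26, 3.04 and 1.88 CPM in WT and 3.06, 2.32 and 3.08 CPM in cKO, with a log2 fold change of 0.24 ± 0.25.

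Many members were highest in the same numbered libraries of both genotypes. Replicate 1 was the highest library within both genotypes for 20 of the 39 tested members (51.3%), whereas this held for 25.2% of all genes tested. For 18 members (46.2%) WT replicate 1 and cKO replicate 1 were the highest libraries of all 6, against 20.0% of all genes. These 18 were Efna2, Efna3, Efnb2, Efnb3, Epha5, Ephb1, Ephb2, Ephb6, Slit1, Robo1, Robo2, Ntng2, Draxin, Dcc, Neo1, Unc5a, Unc5b and Unc5d. Replicate 1 was lowest within both genotypes for only 3 members, Ntn1, Ntn4 and Ntng1 (7.69%), against 26.8% of all genes. The same libraries were high in neuronal RNA, as 10 cortical neuron markers summed to 3231, 2581 and 2883 CPM in WT and to 3353, 2556 and 2419 CPM in cKO. They were low in radial glia RNA, as 10 radial glia markers summed to 2565, 3114 and 3180 CPM in WT and to 2437, 3329 and 2974 CPM in cKO. The 6 intermediate progenitor markers summed to 1446, 1205 and 1316 CPM in WT and to 1337, 1323 and 1094 CPM in cKO. In WT their sums followed the order of the neuronal ones. In cKO replicates 1 and 2 were close, unlike the neuronal sums. The part of the balance of these cell types in the member values was not tested.

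**Figure D4:**
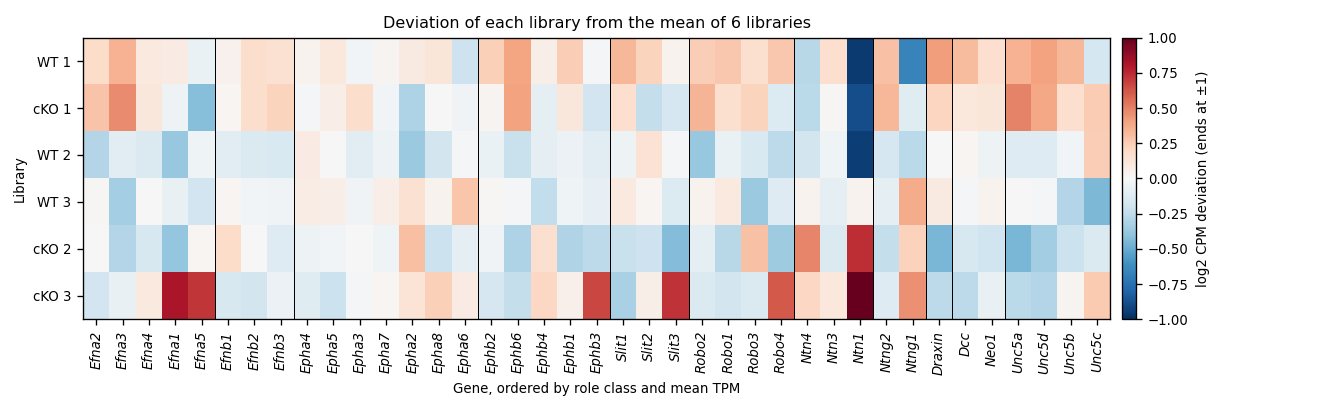
Deviation of log2 CPM from the mean of the 6 libraries for each tested member, with libraries in rows, both replicate 1 libraries at the top, and the colour scale ending at 1 on either side. The replicate 1 libraries are red for most members and blue for Ntn1, and cKO replicate 3 is dark red for Efna1, Efna5, Ephb3, Slit3 and Ntn1.

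The library cKO replicate 3 stood apart in another set of members. It was the highest library for 10 of 39 (25.6%), against 15.8% of all genes, and it exceeded every other library by over 1.5 times for Efna1, Efna5, Ephb3, Ntn1 and Slit3, which is 12.8% of members against 2.95% of all genes. The library cKO replicate 2 was the lowest for 15 members (38.5%), against 14.9% of all genes. The range of fold changes over fits that each left out 1 library was therefore wide for Ntn1, from 0.68 to 2.07, and narrow for Epha4, from -0.14 to -0.10.

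**Figure D5:**
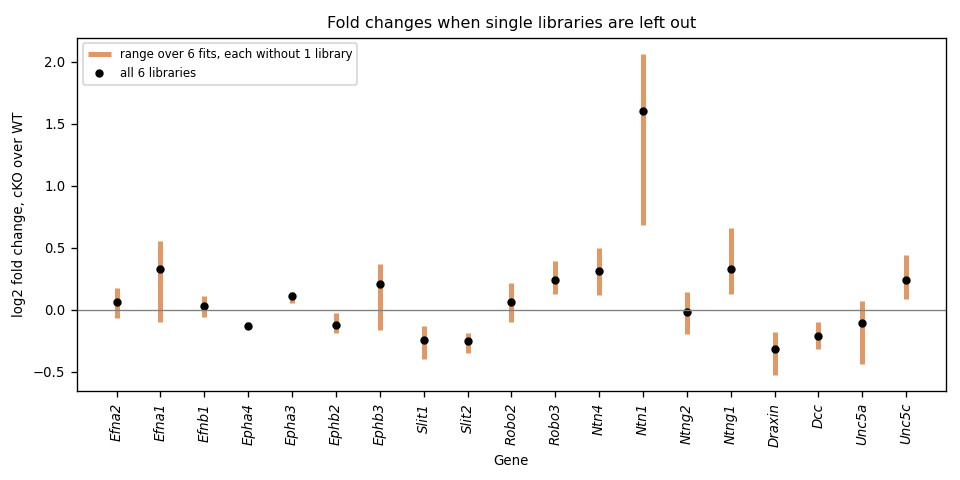
Log2 fold change of cKO over WT for the 19 tested genes named by rule, with all 6 libraries (black) and its range over 6 fits that each left out 1 library (orange). The range crosses 0 for Efna1, Efna2, Efnb1, Ephb3, Robo2, Ntng2 and Unc5a, and stays under 0 for Epha4, Ephb2, Slit1, Slit2, Draxin and Dcc.

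Other genes of these pathways, from surface co-factors to intracellular effectors, were listed as 65 partners, of which 64 were tested. None passed the adjusted edgeR quasi-likelihood test, 0 were higher (1.75% of all genes) and 2 were lower (1.81% of all genes) at an unadjusted p under 0.05, and the median log2 fold change was -0.04, with 24 above 0 and 40 below. All 25 partners of Eph receptors and ephrins, such as adaptors and kinases, were without an unadjusted p under 0.05, as were the 17 tested partners of Slit and Robo. The 2 lower genes were among the 22 partners of netrins. Lrrc4c, the netrin-G1 ligand, stood at 26.0, 28.9 and 26.0 CPM in WT and at 21.2, 18.9 and 24.7 CPM in cKO, or -0.32 ± 0.12 on the log2 scale (unadjusted p of 0.0253). Map1b, a microtubule-associated protein of growing axons, stood at 2595, 2321 and 2521 CPM in WT and at 2099, 2220 and 1968 CPM in cKO, or -0.24 ± 0.09 on the log2 scale (unadjusted p of 0.0275). Both had an adjusted p of 0.99995 in the edgeR test with Benjamini-Hochberg adjustment. Among tested partners, the cKO libraries all lay below the WT libraries for Lrrc4c, Map1b and Arhgef15 (4.83% of all genes). They all lay above for Pitpna (4.21% of all genes).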

How the data were processed

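Total RNA of E13.5 mouse cortex was extracted with Trizol, made into mRNA libraries and sequenced on a DNBSEQ platform. The authors deposited 1 table with estimated counts, TPM and FPKM per gene and library. The submitters' processing notes name HISAT2 2.2.1, Bowtie2 2.4.5, RSEM 1.3.1 and the GRCm38 (mm10) build. The annotation and the strand setting are not given in the sources used here. The estimated counts deposited by the authors are not normalised for depth, and 10.9% are not whole. The deposited TPM values are shares corrected for transcript length, and the deposited FPKM values are scaled for length and depth and were used only to rank levels again. The table's 6 columns of averages per genotype were left out.

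Genotype and replicate number came from the sample titles. Estimated counts were rounded, filtered with filterByExpr (minimum count 10, minimum total 15), scaled by TMM and fitted over 13340 genes with edgeR 4.0.16 in R 4.3.3 (glmQLFit and glmQLFTest, genotype as the only term, two-sided). Adjustment was by the Benjamini-Hochberg method at 0.05. The SE of a log2 fold change is its size over the square root of F. DESeq2 1.42.0, limma 3.58.1 and other settings were alternatives, and the fits were tested on simulated data. Library totals were 15907486 to 16282921 counts, and floors of 3 counts cover counting error only. An exact permutation test of 3 against 3 libraries cannot go below 0.1, so none was used. Deviations of same-numbered libraries from their group means correlated at 0.41, 0.31 and -0.02. Whether the numbers mark pairs is unknown, and the main fit did not treat them as pairs.

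The members, partner lists and marker lists were chosen with earlier results of these data known. Values in every library were given for the most abundant member and the largest fold change of each class, and for members with an unadjusted p under 0.05 or with genotypes that did not overlap. Epha1 was added after its values were seen. Positions and promoter windows are from RefSeq (GRCm38.p6), and overlaps of exons are from GENCODE M21. Marker lists beside those in the text gave 0 adjusted calls, with summed levels of 1094 to 1446 CPM for 6 intermediate progenitor genes, 325 to 521 CPM for 6 Cajal-Retzius genes, 65.0 to 104 CPM for 8 diencephalon genes, 47.8 to 78.9 CPM for 5 pericyte genes, 479 to 839 CPM for 6 erythroid genes, 17.0 to 28.1 CPM for 6 microglia genes, 1.31 to 3.14 CPM for 5 choroid plexus genes and 0.375 to 0.845 CPM for 4 muscle genes.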

Additional observations from a re-analysis of the deposited data

How the results depend on the processing

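In all 17 alternatives 0 members passed the adjusted test. The count of higher members at an unadjusted p under 0.05, which was 1, became 0 with DESeq2, limma-voom, limma on log2(TPM + 1) or log2(TPM + 0.1), and with both doubted libraries left out. It ranged from 0 to 4 when 1 library was left out (0.895% to 4.23% of all genes). The count of lower members, also 1, became 0 with upper-quartile factors or either TPM fit and 2 with DESeq2. Over the fits without 1 library it ranged from 0 to 6 (0.873% to 3.57% of all genes). The members above the WT range (1) and below it (1) became 0 and 0 in both TPM fits and 3 and 7 with both doubted libraries left out (14.0% and 13.0% of all genes), and ranged from 2 to 6 and from 1 to 9 with 1 library left out, the 6 and 9 being without cKO replicate 1, where 12.6% and 12.5% of all genes lay above and below. Partner genes went from 0 to 1 higher (0.895% to 4.23% of all genes) and from 1 to 5 lower (0.873% to 3.57% of all genes) with 1 library left out. In both TPM fits 1 partner was lower (1.51% and 1.58% of all genes), as it was with both doubted libraries left out (1.06% of all genes). With both left out, the log2 fold changes of Ephb3 (-0.18), Robo2 (-0.0044) and Efna1 (-0.22) changed sign. Among the 19 tested genes named by rule, fits without 1 library changed a sign for Unc5a (-0.44 to 0.071), Ntng2 (-0.20 to 0.15), Robo2 (-0.10 to 0.21), Efna2 (-0.068 to 0.18), Efnb1 (-0.058 to 0.11), Ephb3 (-0.16 to 0.37) and Efna1 (-0.10 to 0.56). The cause of these shifts was not tested beyond the libraries named. The leading member of all 11 classes was the same in TPM and FPKM.

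With the replicate number as a block, 2 members were higher (Ntn1 and Robo3, 3.57% of all genes) and 6 lower (Dcc, Draxin, Robo1, Slit1, Slit2 and Unc5d, 4.60% of all genes) at an unadjusted p under 0.05, and 3 partners were higher and 7 lower. Draxin had the lowest unadjusted p of the members, 0.00097, with an adjusted p of 0.417 in the blocked edgeR fit. The labels do not say that equal numbers share a litter or batch. Replicates 1 and 2 deviated together (correlations of 0.41 and 0.31) and replicate 3 did not (-0.02). Whether equal numbers form pairs is therefore unknown. The adjusted p of Ybx1 itself was 0.128 and passed the threshold with DESeq2, edgeR's exact test, the block, without WT replicate 2 and without both doubted libraries.

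Members near 2 CPM, such as Ntng1 and Unc5c, were measured too loosely for a difference of their size to be detectable, and both were left out of the TPM fits by their level. Some members at higher levels were as loose, with standard errors of 0.24 for Ephb3, 0.24 for Unc5a and 0.21 for Unc5d, against 0.25 for Unc5c. In simulated counts with 200 of 13340 genes changed, the main fit recovered 39.5% of 1.5-fold changes, 76.5% of 2-fold changes and 95% of 4-fold changes. An absence of adjusted calls therefore does not exclude changes near 1.5-fold.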

Other observations

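Among tested markers of cells outside the guidance families, the cKO libraries all lay below the WT libraries for Reln and Lhx9. They all lay above for Gad1, Dlx5, Sst, Npy, Tcf7l2 and Aqp1. Of all genes tested, 4.83% lay below and 4.21% above. Among 6 Cajal-Retzius genes, Reln, the secreted protein that orders cortical layers, stood at 468, 387 and 383 CPM in WT and at 382, 291 and 284 CPM in cKO, a log2 fold change of -0.37 ± 0.14 with an unadjusted p of 0.0250. Its lowest WT library was only just over cKO replicate 1. Of the 5 others, Trp73, Lhx1 and Lhx5 had log2 fold changes of -0.40 to -0.18, Calb2 of 0.12 and Ndnf of 0.65 with an unadjusted p of 0.0358. Among 8 genes listed for the diencephalon, Lhx9 stood at 75.1, 59.9 and 54.1 CPM in WT and at 52.1, 49.1 and 49.5 CPM in cKO, a log2 fold change of -0.33 ± 0.12 with an unadjusted p of 0.0255. Of the other tested genes of that list, Tcf7l2 was above the WT range in all 3 cKO libraries (0.21 ± 0.12) and Irx3 was at 0.558 to 1.13 CPM in 5 libraries and 9.59 CPM in cKO replicate 3. Of its untested genes, Gbx2, Olig3 and Shox2 were at 0 to 0.603 CPM in every library. Irx1 and Irx2 were at 14.2 and 18.2 CPM in cKO replicate 3 and at 0 to 0.125 CPM elsewhere. Whether Lhx9 marks diencephalic tissue in these libraries was not tested. Reln and Lhx9 had a Benjamini-Hochberg adjusted p of 0.99995 (edgeR's quasi-likelihood test), and all these genes were named after their values were seen.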
